A study of Mus musculus with 130 samples.

Results

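The collagen genes outside cartilage were described here in FVB/NJ mouse embryos with the FUCCI reporter. They were chosen by name: every entry of the raw count table whose symbol has the form of a collagen chain gene, such as Col1a1, was taken, and Col2a1, Col9a1 and Col11a2, the chains that mark cartilage most, were left out. That gave 41 genes of the 44 that match the form and of 52550 genes in the table. Collagens are secreted or membrane-bound proteins in which 3 polypeptide chains wind into a triple helix. In some types, partner chains from different genes wind together. Fibrillar collagens build the tensile fibrils of skin, tendon and bone, type IV collagen forms the sheet-like network of basement membranes under epithelia and around vessels, and type VI forms beaded filaments next to cells. The fibril-associated collagens sit on the surface of fibrils, and the multiplexins, type XV and type XVIII, border basement membranes.

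The 41 genes fell into 9 fibrillar, 6 type IV, 6 type VI, 8 fibril-associated and 2 multiplexin genes, 3 short-chain genes of types VIII and X, 4 transmembrane genes, and 3 others (Col7a1, whose product anchors the epidermal basement membrane, Col26a1 and Col28a1). The rule removes only 3 cartilage chains. Col9a2, Col9a3, Col10a1, Col11a1 and Col27a1 stayed in although cartilage is known to make them, so for these 5 a label of genes outside cartilage does not hold. All 41 genes passed the filter on low counts, and each was detected in every library with the exception of Col6a5, which had 0 counts in 2 G1-S libraries, WT1 and WT3.

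The embryos were wild type, and all groups carried the reporter, which gives red fluorescence ahead of S phase and green fluorescence between S phase and division. Cells of minced whole embryos were sorted into 4 gates that the labels name G0, G1, G1-S and S-G2-M, or left unsorted. Embryonic day 10.5 (E10.5) was covered by preparations WT1 and WT2, E11.5 by WT3 alone, and E13.5 by preparations 5 and 8. Each preparation gave 5 libraries, so each gate had n = 5 over all days, with 2, 1 and 2 preparations on the 3 days. Whether 1 embryo or several went into a preparation is not given in the labels, so p-values measure the spread between preparations, which may be technical.

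Library totals were 14.7 to 58.5 M counts, with a median of 22.9 M. Levels are given as CPM, counts per 1 M of the scaled library total, and lists of 5 values run in the order WT1, WT2, WT3, 5 and 8. Preparations 5 and 8 differed from the others in title form and in the share of mitochondrially encoded counts, 1.66 to 3.42% against 0.372 to 0.701%, so the day and this batch cannot be told apart. Unsorted libraries held 16545 to 35883 CPM of 9 erythroid markers, and no sorted library held more than 3125 CPM. Gates also differed in the cell types they hold. The 10 neuronal markers summed to 5129 to 9268 CPM in G0 and to 204 to 549 CPM in S-G2-M. In bulk samples, fewer cells of a type and less RNA per cell cannot be told apart.

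Several chains lie next to their partners in the genome (GENCODE M21, GRCm38, the assembly that mm10 names). Col4a1 and Col4a2, whose products form the main type IV network, are head to head on chromosome 8 and their annotated starts are 21 bp apart. Col4a4 and Col4a3 are head to head on chromosome 1 with 71 bp between them, and Col4a6 and Col4a5 on chromosome X with 1308 bp between them. Col6a6, Col6a5 and Col6a4 follow each other in the same direction on chromosome 9. The log2 changes of Col4a1 and Col4a2 lay close to each other in the comparisons below. Those of Col4a4 and Col4a3, at low levels, had opposite signs between days and in G1 against G0, and none of these passed. Whether the arrangement of the genes plays a part was not tested. The start regions of Col4a1 and Col4a2 are shown, from 250 bases before to 50 bases after the RefSeq start (GRCm38.p6). Capitals mark the 78 bases, chr8:11312777-11312854, that the windows of both genes hold on opposite strands.
Col4a1, chr8:11312777-11313076, minus strand: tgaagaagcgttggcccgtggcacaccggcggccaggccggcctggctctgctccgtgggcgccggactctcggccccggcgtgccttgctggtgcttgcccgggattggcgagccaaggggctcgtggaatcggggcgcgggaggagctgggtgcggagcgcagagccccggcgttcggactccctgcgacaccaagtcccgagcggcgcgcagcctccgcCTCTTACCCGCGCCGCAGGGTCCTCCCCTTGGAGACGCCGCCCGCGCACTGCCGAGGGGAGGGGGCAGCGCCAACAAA
Col4a2, chr8:11312555-11312854, plus strand: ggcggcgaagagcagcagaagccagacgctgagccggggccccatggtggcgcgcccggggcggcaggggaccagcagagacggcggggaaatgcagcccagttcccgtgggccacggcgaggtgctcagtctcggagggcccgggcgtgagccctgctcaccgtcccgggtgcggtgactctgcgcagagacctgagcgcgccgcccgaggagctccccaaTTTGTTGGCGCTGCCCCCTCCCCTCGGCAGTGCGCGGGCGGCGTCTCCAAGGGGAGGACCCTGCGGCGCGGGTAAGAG
The windows of Col1a2 and Col3a1, the fibrillar chains with the highest levels, are shown for contrast, with capitals for CCAAT, or its reverse complement ATTGG, wherever either occurs.
Col1a2, chr6:4505368-4505667, plus strand: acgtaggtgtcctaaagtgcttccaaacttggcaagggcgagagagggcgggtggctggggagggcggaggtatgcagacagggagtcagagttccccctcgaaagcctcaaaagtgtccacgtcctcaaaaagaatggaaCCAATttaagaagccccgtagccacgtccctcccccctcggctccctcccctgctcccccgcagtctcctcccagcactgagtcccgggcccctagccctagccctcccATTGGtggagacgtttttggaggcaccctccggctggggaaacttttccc
Col3a1, chr1:45311288-45311587, plus strand: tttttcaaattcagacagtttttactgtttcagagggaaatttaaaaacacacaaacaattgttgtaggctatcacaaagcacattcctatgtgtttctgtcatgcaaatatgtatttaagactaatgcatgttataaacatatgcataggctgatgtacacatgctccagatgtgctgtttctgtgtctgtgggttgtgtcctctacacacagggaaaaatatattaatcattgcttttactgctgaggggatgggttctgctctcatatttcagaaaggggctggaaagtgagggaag
The Col1a2 window held CCAAT at 2 places and the Col3a1 window at 0, and GC made up 61.0% and 37.7% of their bases, against 74.0% in that of Col4a1. RefSeq windows were at hand for 33 of the 41 genes, 35 windows in all. CCAAT on either strand was found in 12 of these 35 (34.3%) and in 37.4% of all 32851 windows. GGGCGG on either strand was found in 22 (62.9%) against 35.7% of all windows, and TATAAA in 4 (11.4%) against 13.6%. None of the 3 motifs contains another, and a match is a description of the letters only.

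Levels between genes were compared per length, as CPM per kb of the longest protein-coding transcript. The order of genes can depend on this length. Col1a2 has 5.35 kb in that transcript and 12.43 kb over all annotated exons, and Col1a1 has 5.93 and 6.56 kb. In unsorted cells the highest member was Col3a1, a fibrillar chain of soft tissues, with 168 CPM per kb at E10.5 and 484 at E13.5 (means of 2 preparations). Col1a2, a chain of type I collagen, was in place 3 at E10.5, with 79.2 CPM per kb, and in place 2 at E13.5, with 348. Its partner Col1a1 was in place 8 at E10.5, with 28.1 CPM per kb, and in place 3 at E13.5, with 219. Col18a1 and Col26a1 were in places 4 and 5 at E10.5, with 77.2 and 61.7, and in places 14 and 10 at E13.5. Col4a1 stood at 80.1 CPM per kb at E10.5 and 111 at E13.5, in place 2 of the 41 at E10.5 and place 4 at E13.5. The lowest members at E13.5 were Col4a3 and Col4a4, the chains of the kidney glomerulus, with 0.0638 and 0.106 CPM per kb. Fibrillar genes made up 50.9% of the summed CPM per kb of all members at E10.5 and 62.3% at E13.5. Type IV made up 20.1% and 8.87%, and type VI 1.66% and 6.87%. All members together took 0.334 to 0.482% of the scaled counts in the 3 unsorted libraries of E10.5 and E11.5, and 1.23 and 1.27% at E13.5.

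**Figure D1:**
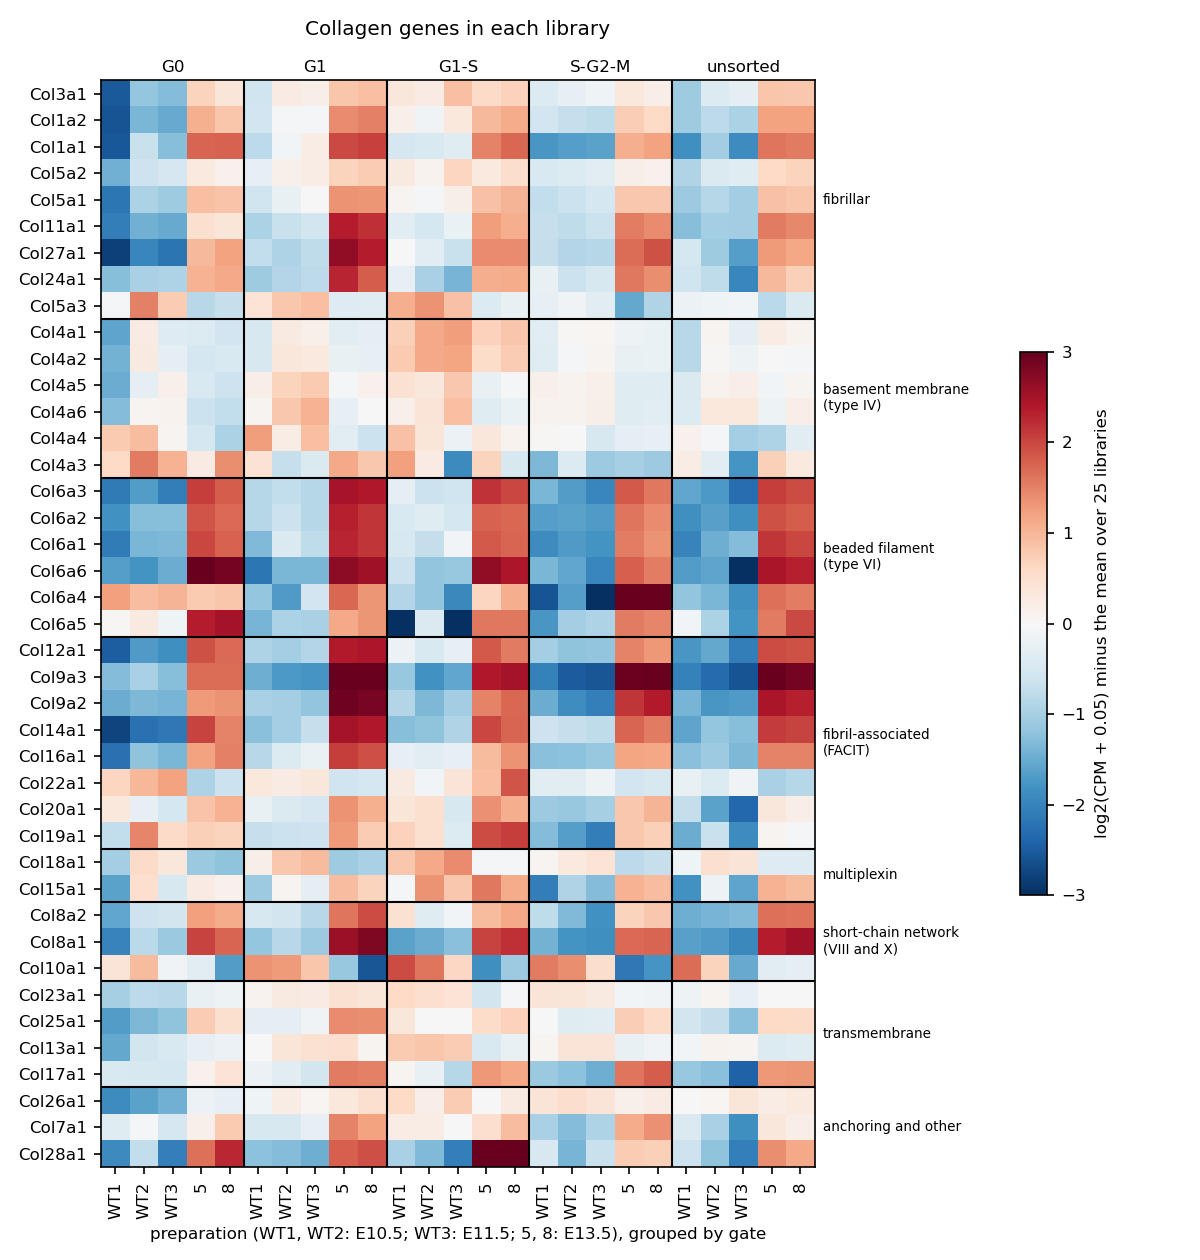
Level of each of 41 collagen genes (rows, by class) in 25 libraries (columns, by gate and preparation), as log2(CPM + 0.05) minus the gene's mean over all libraries, with colours limited at -3 and 3. Preparations 5 and 8 (E13.5) are red in most fibrillar, type VI and fibril-associated rows, while the type IV rows Col4a1 and Col4a2 are reddest in the G1-S columns.

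The comparison of days asked which chains rose between E10.5 and E13.5 in unsorted cells. Of the 41 members, 27 rose and 2 fell, and 12 did not pass the test (edgeR quasi-likelihood, Benjamini-Hochberg adjusted p under 0.05 over 24129 genes). Over all genes 23.2% rose and 23.7% fell. The median log2 change of the members was 1.76, and that of all genes was -0.06. The rises covered 8 of 9 fibrillar, 6 of 6 type VI, 6 of 8 fibril-associated, 2 of 3 short-chain, 2 of 4 transmembrane, 1 of 2 multiplexin and 2 of 3 other genes. Among the 6 type IV genes 0 passed in either direction, at an unadjusted p under 0.05 as well as after adjustment. WT1 was below both E13.5 libraries for Col4a1, Col4a2, Col4a5 and Col4a6, while WT2 was above both for Col4a2, Col4a5 and Col4a6. The size of their change thus depended on which E10.5 library was used. A test not passed here does not show that type IV stayed level.

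Among the fibrillar genes, Col3a1 was at 731 and 1139 CPM at E10.5, 1257 CPM at E11.5 and 2704 and 2679 CPM at E13.5. It was higher in both E13.5 libraries than in any earlier one, with a log2 change of 1.54 ± 0.26 (SE; adjusted p = 0.00326). Col1a2 was at 383 and 464 CPM at E10.5, 414 CPM at E11.5 and 1866 and 1852 CPM at E13.5, again without overlap between the days, and rose by 2.15 ± 0.19 (SE; adjusted p = 0.000354) on the log2 scale. Col1a1, its partner chain in type I collagen, was at 121 and 212 CPM at E10.5, 117 CPM at E11.5 and 1316 and 1277 CPM at E13.5 and rose by 2.97 ± 0.28 (SE; adjusted p = 0.000433). Type V collagen regulates the diameter of type I fibrils, and its chains Col5a1 and Col5a2 rose by 1.84 ± 0.16 and 1.28 ± 0.20. The other risers of this class were Col11a1, Col27a1 and Col24a1, with log2 changes of 2.66 ± 0.17, 2.02 ± 0.19 and 1.56 ± 0.18. Col5a3 did not pass, with -0.45 ± 0.30 (SE; adjusted p = 0.249).

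None of the type IV genes passed the test. Col4a1 was at 366 and 694 CPM at E10.5, 545 CPM at E11.5 and 759 and 709 CPM at E13.5. Both E13.5 values were the highest, WT2 lay close below them and WT1 was lowest. Its log2 change was 0.48 ± 0.29 (SE; adjusted p = 0.205). Col4a2 was at 243 and 438 CPM at E10.5, 387 CPM at E11.5 and 432 and 422 CPM at E13.5, and the days overlapped, with a log2 change of 0.34 ± 0.27 (SE; adjusted p = 0.323). In WT1 the Col4a2 level lay apart from the other 4 unsorted libraries. The 12 endothelial markers, from cells that make much of the type IV network, summed to 92.3, 440, 280, 539 and 492 CPM in the same libraries, and 2 of 12 rose and 0 fell by the test. WT1 was lowest for these markers too, and their part in the result was not tested.

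Col4a5 and Col4a6 are chains of another type IV network. Col4a5 was at 49.3 and 72 CPM at E10.5, 76.9 CPM at E11.5 and 62.4 and 70.4 CPM at E13.5, and Col4a6 at 17.7 and 29.1 CPM at E10.5, 29.1 CPM at E11.5 and 20.9 and 26.7 CPM at E13.5. Their log2 changes were 0.15 ± 0.20 (SE; adjusted p = 0.563) and 0.04 ± 0.25 (SE; adjusted p = 0.912), and the days overlapped for both. Col4a4 was at 1.8 and 1.6 CPM at E10.5, 0.784 CPM at E11.5 and 0.843 and 1.3 CPM at E13.5, with a log2 change of -0.64 ± 0.39 (SE; adjusted p = 0.215). Col4a3 was at 0.434 and 0.277 CPM at E10.5, 0.0713 CPM at E11.5 and 0.632 and 0.46 CPM at E13.5, with 0.65 ± 0.59 (SE; adjusted p = 0.39). In the E11.5 library Col4a3 had 2 counts. About 5.6% of the exon bases of Col4a3 lie under a gene on the other strand, and whether the counting used strand is not given in the sources used here.

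Type VI collagen, made by fibroblasts and muscle connective tissue, rose in all 6 genes. Col6a3 was at 33 and 29.3 CPM at E10.5, 20 CPM at E11.5 and 409 and 380 CPM at E13.5 and rose by 3.68 ± 0.16 (SE; adjusted p = 2.36e-05) on the log2 scale. Col6a2 was at 17.1 and 20 CPM at E10.5, 17 CPM at E11.5 and 231 and 215 CPM at E13.5 and rose by 3.60 ± 0.16 (SE; adjusted p = 2.36e-05). Every E13.5 library was above every earlier one for both genes, and Col6a1, the last chain of the main trimer, rose by 3.79 ± 0.21. Col6a6 was at 1.17 and 1.26 CPM at E10.5, 0.321 CPM at E11.5 and 21.3 and 19.7 CPM at E13.5, the largest rise in this class at 4.09 ± 0.23 (SE; adjusted p = 6.48e-05). Col6a4 and Col6a5 rose by 3.01 ± 0.36 and 2.44 ± 0.50 from levels under 1 CPM at E10.5.

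Of the fibril-associated genes, Col9a3 had the largest rise of all members. It was at 8.41 and 6.94 CPM at E10.5, 5.67 CPM at E11.5 and 277 and 250 CPM at E13.5, with a log2 change of 5.12 ± 0.18 (SE; adjusted p = 1.63e-05). The gene Tcfl5 lies on the other strand of 6.1% of the exon bases of Col9a3. Col9a2, its partner in type IX collagen of cartilage fibrils, rose by 3.97 ± 0.17. Col12a1, found on fibrils of dense connective tissue, was at 51.4 and 59.8 CPM at E10.5, 40.9 CPM at E11.5 and 672 and 647 CPM at E13.5 and rose by 3.58 ± 0.17 (SE; adjusted p = 3.65e-05), without overlap between the days. Col14a1, Col16a1 and Col20a1 rose by 3.44 ± 0.18, 2.67 ± 0.14 and 1.42 ± 0.33. Without preparation 5 the call of Col20a1 was lost (adjusted p = 0.0632). Col22a1, known from muscle and tendon junctions, was at 25.1 and 22 CPM at E10.5, 26.9 CPM at E11.5 and 14.9 and 16 CPM at E13.5 and fell by 0.59 ± 0.15 (SE; adjusted p = 0.0172). Its E13.5 values lay below all earlier ones, but without preparation 5 or 8 the call was lost (adjusted p = 0.196 and 0.172). Col19a1 did not pass, with 1.04 ± 0.38 (SE; adjusted p = 0.0549).

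Among the remaining classes, Col8a1, a short-chain collagen of vessel walls and the corneal Descemet membrane, was at 2.8 and 2.68 CPM at E10.5, 2.25 CPM at E11.5 and 45.2 and 50.8 CPM at E13.5 and rose by 4.15 ± 0.17 (SE; adjusted p = 2.36e-05). Its partner Col8a2 was at 14.1 and 14.9 CPM at E10.5, 15.5 CPM at E11.5 and 123 and 121 CPM at E13.5 and rose by 3.09 ± 0.13 (SE; adjusted p = 2.36e-05). For both the days did not overlap. Col10a1, the collagen of hypertrophic cartilage, was at 3.64 and 1.79 CPM at E10.5, 0.356 CPM at E11.5 and 0.885 and 0.919 CPM at E13.5 and fell by 1.55 ± 0.45 (SE; adjusted p = 0.027), a call lost without preparation 5 or 8 (adjusted p = 0.0904 and 0.101). The E11.5 library was the lowest of the 5 for this gene.

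Of the multiplexins, 1 of 2 passed. Col18a1, whose product carries heparan sulfate in basement membranes, was at 342 and 522 CPM at E10.5, 492 CPM at E11.5 and 288 and 285 CPM at E13.5, and its log2 change was -0.58 ± 0.22 (SE; adjusted p = 0.066). Both E13.5 values lay below all earlier ones. Col15a1, found in the outer zone of basement membranes of muscle and vessels, was at 9.51 and 30.2 CPM at E10.5, 11.2 CPM at E11.5 and 69.1 and 65 CPM at E13.5 and rose by 1.76 ± 0.52 (SE; adjusted p = 0.0409). That size depended on the E10.5 library kept, and was 1.15 without WT1 and 2.77 without WT2.

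The transmembrane and other genes split as well. Col23a1 was at 63.1 and 74.1 CPM at E10.5, 58.8 CPM at E11.5 and 70.2 and 70 CPM at E13.5, with a log2 change of 0.05 ± 0.14 (SE; adjusted p = 0.798) and overlapping days. Col25a1, which developing muscle makes and motor nerves need, was at 32.8 and 29 CPM at E10.5, 20 CPM at E11.5 and 72.1 and 71.2 CPM at E13.5 and rose by 1.23 ± 0.13 (SE; adjusted p = 0.000607). Col17a1, the hemidesmosome collagen of the epidermis, rose by 2.53 ± 0.20. Col26a1 was at 168 and 175 CPM at E10.5, 218 CPM at E11.5 and 198 and 207 CPM at E13.5 and did not pass, with 0.26 ± 0.14 (SE; adjusted p = 0.159). Col7a1 was at 12.4 and 8.63 CPM at E10.5, 4.7 CPM at E11.5 and 21.3 and 19.3 CPM at E13.5 and rose by 0.98 ± 0.22 (SE; adjusted p = 0.00971), and its call was lost without preparation 5 (adjusted p = 0.115). Col28a1 rose by 2.30 ± 0.43 and Col13a1 did not pass, with -0.39 ± 0.18 (SE; adjusted p = 0.12).

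**Figure D2:**
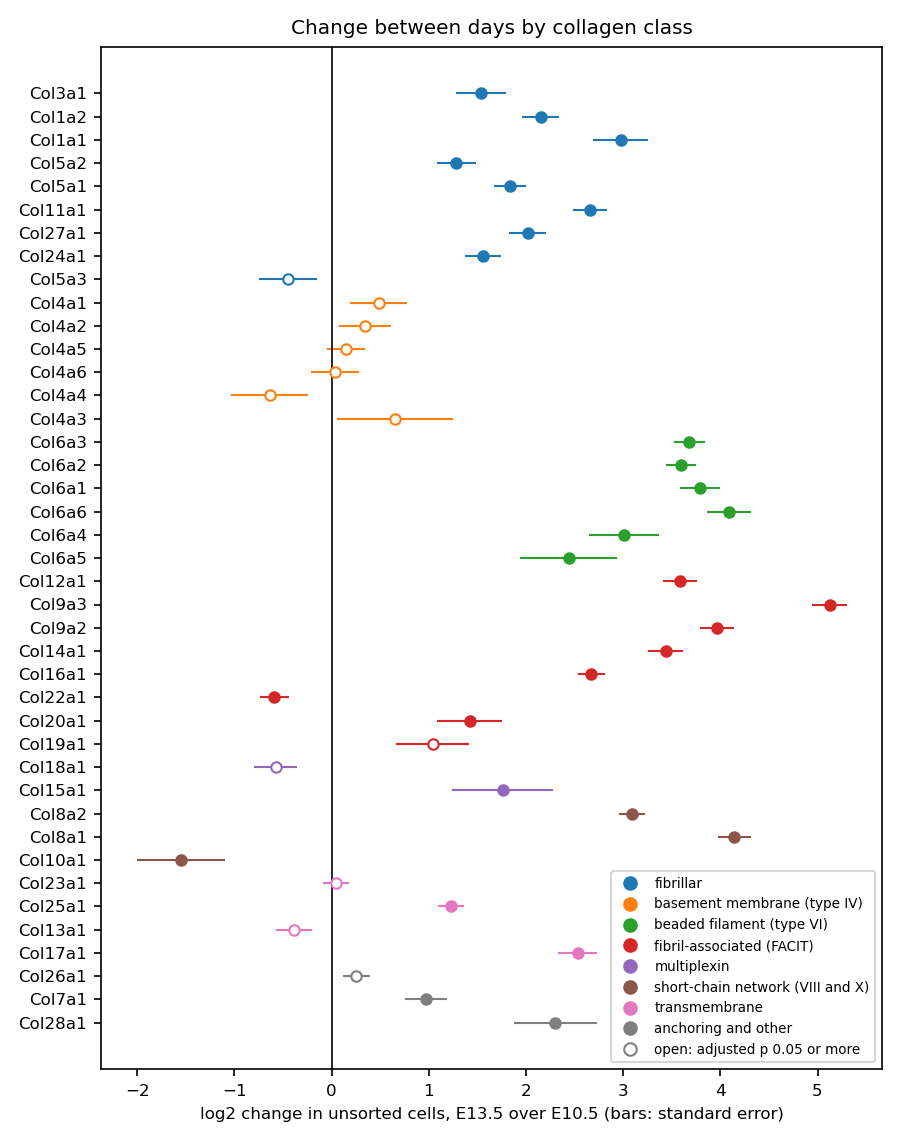
Log2 change of each collagen gene between E10.5 and E13.5 in unsorted cells (points, coloured by class; bars are standard errors; open points did not pass the test). All 6 type IV points are open, and all 6 type VI points lie above 2.4.

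Genes that work on collagen moved in the same comparison. Of 20 genes for chain modification and folding, 16 rose and 0 fell, with a median log2 change of 1.24. Creb3l1, a transcription factor of collagen secretion, rose by 2.91 ± 0.29, and P4ha3, a prolyl hydroxylase subunit, by 2.79 ± 0.23. Serpinh1, the collagen chaperone, did not pass, with 0.52 ± 0.24 (SE; adjusted p = 0.113). Of 14 genes for procollagen processing and cross-linking, 12 rose and 0 fell. Lox, the lysyl oxidase that cross-links fibrils, rose by 4.43 ± 0.19 (SE; adjusted p = 2.36e-05). Of 9 small leucine-rich proteoglycans, which bind fibrils, 8 rose and 1 fell, and of 10 collagen receptors 7 rose and 0 fell. Of 8 collagenases, gelatinases and their inhibitors tested, 7 rose and 0 fell. Among 16 laminins and other basement membrane partners of type IV, 10 rose and 1, Lama1, was lower, with a log2 change of -1.22 ± 0.16.

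Markers of collagen-making cells also moved with the day. Of the markers tested, 9 of 10 cartilage, 5 of 6 osteoblast, 3 of 3 tendon, 8 of 8 mural and 7 of 10 mesenchyme markers rose, and 1 mesenchyme marker fell. Lists of other cells rose as well, with 7 of 7 hepatocyte, 8 of 8 macrophage and 6 of 9 erythroid markers. The erythroid list had 1 lower, and the neural progenitor list had 1 of 8 higher and 3 lower. The 10 cartilage markers in the table summed to 693, 668, 602, 3414 and 2945 CPM and the 10 mesenchyme markers to 597, 854, 852, 1293 and 1304 CPM in unsorted cells. Matn1, a defining gene of mature cartilage, was at 0.0667, 0.213, 0.214, 68 and 52.6 CPM, near 0 in all 3 earlier libraries. The part of these cells in the rise of the collagen genes was not tested. In G1, Col1a1 was at 250, 410, 510, 1718 and 1798 CPM and Col6a3 at 54.2, 58.8, 53.8, 540 and 516 CPM, both higher in each E13.5 library than in any earlier one.

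The comparison of G1 with G0 asked how cells of the G1 gate differ from those of the G0 gate. Of the 41 members, 20 were higher in G1 and 1 was lower, against 18.2% of all 23506 genes higher and 18.1% lower. The median log2 change of the members was 0.55 and that of all genes 0.01. Higher were 7 of 9 fibrillar, 4 of 8 fibril-associated, 3 of 6 type VI, 3 of 4 transmembrane and 2 of 6 type IV genes, and Col26a1. Within the preparations titled WT, 19 members were higher and 3 lower (13.4% and 12.9% of all genes). Within preparations 5 and 8, 29 were higher and 2 lower (20.2% and 23.1% of all genes).

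The 3 largest rises were those of Col27a1, Col11a1 and Col26a1. Col27a1, a fibrillar chain known from growth cartilage, was at 7.88, 14.2, 12.1, 108 and 128 CPM in G0 and at 32.8, 28.8, 32.6, 349 and 284 CPM in G1, a log2 change of 1.43 ± 0.26 (SE; adjusted p = 0.000113). It was higher in G1 in every preparation. Col11a1, a chain of thin fibrils, was at 55.7, 86.5, 82.2, 330 and 302 CPM in G0 and at 123, 148, 160, 1216 and 1076 CPM in G1, with 1.35 ± 0.19 (SE; adjusted p = 5.78e-06). Col26a1, first described in developing gonads, was at 45.5, 55.3, 62.4, 149 and 142 CPM in G0 and at 154, 198, 175, 212 and 236 CPM in G1, with 1.16 ± 0.23 (SE; adjusted p = 0.000366). Every G1 library of Col26a1 lay above every G0 library.

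Type I and type III chains were also higher in G1. Col1a2 was at 134, 313, 281, 1684 and 1432 CPM in G0 and at 542, 789, 778, 2147 and 2284 CPM in G1, a log2 change of 1.05 ± 0.25 (SE; adjusted p = 0.00202). For Col3a1 the values were 263, 682, 612, 2405 and 1967 CPM in G0 and 1008, 1788, 1713, 2712 and 2843 CPM in G1, with 0.97 ± 0.29 (SE; adjusted p = 0.0103). Each was higher in G1 in 5 of 5 preparations. For Col3a1 the step was 1.55 ± 0.29 (adjusted p = 0.00128) in the WT-titled preparations and 0.33 ± 0.10 (adjusted p = 0.0102) in preparations 5 and 8, with a difference between days of -1.22 ± 0.49 (SE; adjusted p = 0.224), and the call over all libraries was lost without WT2 or WT3 (adjusted p = 0.0545 and 0.0605). Col1a1 and Col6a1 changed by 0.80 ± 0.27 and 0.60 ± 0.21 and also lost their calls without WT3 (adjusted p = 0.132 and 0.0658), and Col6a1 without WT2 (0.129).

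Of the type IV genes, Col4a5 and Col4a6 were the 2 that passed. Col4a5 was at 23.8, 55.4, 74.5, 48.3 and 43.5 CPM in G0 and at 76.4, 106, 115, 64.9 and 72.3 CPM in G1, with 0.83 ± 0.18 (SE; adjusted p = 0.000874). Col4a6 was at 9.4, 24.6, 25.1, 15 and 14.1 CPM in G0 and at 24.6, 40.9, 48.2, 19.7 and 23.7 CPM in G1, with 0.81 ± 0.20 (SE; adjusted p = 0.00288). Both were higher in G1 in every preparation. Col4a1 and Col4a2 had log2 changes of 0.32 ± 0.23 (SE; adjusted p = 0.308) and 0.35 ± 0.22 (SE; adjusted p = 0.223). With the preparation as a block the value of Col4a2 was 0.40 ± 0.15 (adjusted p = 0.0369), which passes, and that of Col18a1 was 0.46 ± 0.17 (adjusted p = 0.0328) in place of 0.42 ± 0.21 (SE; adjusted p = 0.129). Col4a3 and Col4a4 did not pass, with -0.80 ± 0.46 and 0.27 ± 0.29.

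The other called rises were Col12a1, Col14a1, Col16a1 and Col9a2 among the fibril-associated genes, at 0.82 to 1.01, Col6a2 and Col6a3 of type VI, at 0.57 and 0.86, Col5a1 and Col5a2, at 0.78 and 0.71, and Col13a1, Col23a1 and Col25a1, at 0.80 to 0.97. Col9a2 passed within preparations 5 and 8, with 1.56 ± 0.09 (adjusted p = 1.71e-09), and not within the WT-titled ones, with 0.36 ± 0.17 (adjusted p = 0.141). Col13a1 lost its call without WT3 (adjusted p = 0.0526). Col6a5 was the 1 gene lower in G1, with -1.27 ± 0.42 (SE; adjusted p = 0.019), from levels of 0.447 to 3.06 CPM in G0, and it lost the call without preparation WT2, 5 or 8 (adjusted p = 0.0686, 0.096 and 0.0947), and within the WT-titled preparations (0.25).

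The modification list had 17 of 20 genes higher in G1 and 0 lower, among them Serpinh1 with 1.13 ± 0.18 (SE; adjusted p = 3.2e-05) and Plod2, a lysyl hydroxylase, with 0.95 ± 0.14 (SE; adjusted p = 8.11e-06). Of the processing list 9 of 14 were higher and 0 lower. Of the basement membrane partners 10 of 16 were higher and 1 was lower. Cell type markers moved in the same comparison. All 10 neuronal markers were lower in G1, with a median log2 change of -2.72. Of the mesenchyme markers 8 of 10 were higher and 0 lower, and of the cartilage markers 7 of 10 were higher and 1 lower. Also higher were 9 of 11 epithelial, 7 of 8 neural progenitor, 7 of 8 macrophage and 7 of 9 erythroid markers. Of the cardiac markers 4 of 7 and of the skeletal muscle markers 3 of 8 were lower. The mesenchyme markers summed to 91.5, 213, 275, 1024 and 831 CPM in G0 and to 548, 897, 882, 1614 and 1596 CPM in G1, lower in G0 in every preparation. WT1 was the lowest G0 library for these markers and for the summed members, at 0.172% of the scaled counts. Their part in the collagen differences was not tested.

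The comparison of G1-S with G1 asked what differs where red and green fluorescence overlap. Of the 41 members, 3 were higher in G1-S and 0 were lower, against 11.7% and 7.18% of all genes, and 9 members had an unadjusted p under 0.05. The 3 were Col4a1, Col4a2 and Col18a1, all of basement membranes. DESeq2 called 4 higher and 1 lower, and without the filter on low counts 7 were higher and 5 lower. The comparisons between gates share libraries, so a gene high in G1-S can be called both in this comparison and, in the other direction, in that of S-G2-M with G1-S.

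Col4a1 was at 468, 785, 732, 524 and 544 CPM in G1 and at 1071, 1434, 1558, 1062 and 1166 CPM in G1-S, a log2 change of 1.04 ± 0.24 (SE; adjusted p = 0.00303). Every G1-S library lay above every G1 library. Col4a2 was at 307, 541, 531, 371 and 365 CPM in G1 and at 738, 943, 975, 635 and 724 CPM in G1-S, with 0.93 ± 0.22 (SE; adjusted p = 0.00408), again without overlap. Col18a1 was at 425, 661, 724, 179 and 191 CPM in G1 and at 655, 819, 1001, 361 and 358 CPM in G1-S, with 0.63 ± 0.21 (SE; adjusted p = 0.0404). It was higher in G1-S in 5 of 5 preparations, but the gates overlapped across days.

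The 3 genes did not pass in the WT-titled preparations alone. For Col4a1 the step was 1.03 ± 0.36 (adjusted p = 0.094) in those and 1.01 ± 0.08 (adjusted p = 1.58e-07) in preparations 5 and 8, and its difference between days was 0.06 ± 0.65 (SE; adjusted p = 1). For Col4a2 the values were 0.95 ± 0.34 (adjusted p = 0.103) and 0.84 ± 0.08 (adjusted p = 1.02e-06). Col18a1 had 0.45 ± 0.30 (adjusted p = 0.412) and 0.91 ± 0.07 (adjusted p = 7.28e-08), and lost its call without WT3, 5 or 8 (adjusted p = 0.0877, 0.193 and 0.189) and with RLE factors (adjusted p = 0.0505). Col15a1 was higher in G1-S in 5 of 5 preparations and did not pass, with 0.96 ± 0.42 (SE; adjusted p = 0.117). With the preparation as a block it passed, with 0.94 ± 0.28 (adjusted p = 0.0213). The other 4 type IV genes had log2 changes of -0.14 ± 0.48 (Col4a3), -0.07 ± 0.29 (Col4a4), -0.08 ± 0.18 (Col4a5) and -0.18 ± 0.20 (Col4a6).

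**Figure D3:**
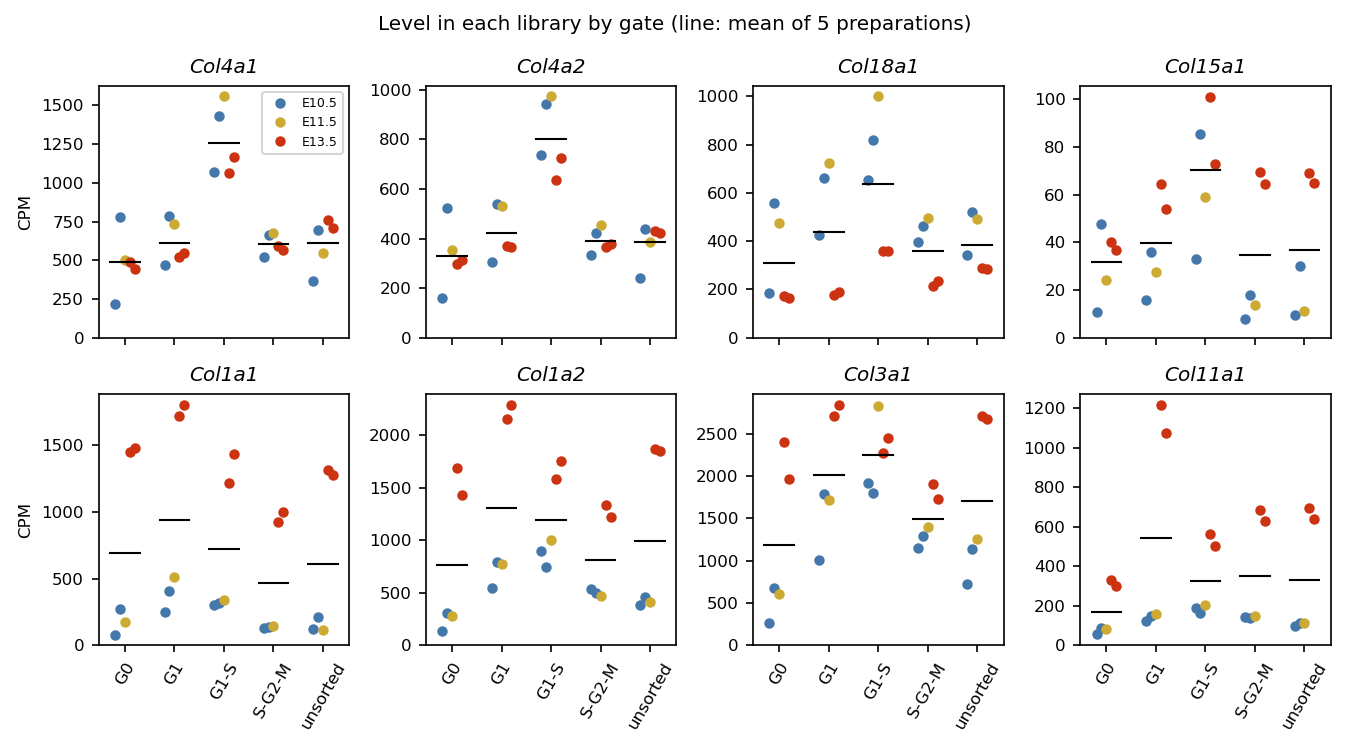
Level in CPM of 8 collagen genes in each library by gate (points, coloured by day; lines are means of 5 preparations; each axis starts at 0). For Col4a1 and Col4a2 all 5 G1-S points lie above all G1 points, while Col1a1, Col1a2 and Col11a1 separate first by day.

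Of the basement membrane partners, 4 of 16 were higher in G1-S and 0 lower, among them Lama4, a laminin chain of vessels, with 0.91 ± 0.24 (SE; adjusted p = 0.00912), and Nid2 with 0.62 ± 0.21 (SE; adjusted p = 0.0374). In the modification list 0 of 20 genes passed in either direction. The endothelial markers summed to 156, 460, 392, 178 and 177 CPM in G1 and to 314, 851, 823, 569 and 361 CPM in G1-S, higher in G1-S in every preparation, and 1 of 12 passed. Pecam1, an endothelial defining gene, was at 15.5, 49, 35.8, 18.8 and 15.9 CPM in G1 and at 33.8, 90.8, 78.5, 80.8 and 48.8 CPM in G1-S. The 8 macrophage, 7 of 7 hepatocyte and 6 of 7 cardiac markers were higher in G1-S as well. Of the skeletal muscle markers 4 of 8 were higher and 0 lower, and of the neuronal markers 0 were higher and 6 of 10 lower. What these cells contribute to the steps of Col4a1, Col4a2 and Col18a1 was not tested.

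The counts of called members were unlike in the batches. Within preparations 5 and 8, 7 members were higher in G1-S and 25 lower (22.5% and 18.1% of all genes). Within the WT-titled preparations 1 was higher and 0 were lower (4.9% and 4.15% of all genes). Across the 4 sorted gates, 26 of 41 members had their highest mean in G1-S in the WT-titled preparations. In preparations 5 and 8, 26 of 41 had it in G1. This count was not made over all genes, so whether it is particular to the members was not tested. The difference of the G1-S step between E13.5 and E10.5 was tested itself. It was higher at E13.5 for 1 member and lower for 12, against 3.7% and 1.6% of all genes, and without the filter on low counts for 1 and 19.

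Col27a1 had the largest fall of that kind. It was at 54.9, 44.3, 34.9, 147 and 147 CPM in G1-S, beside the G1 values above, and the difference between days was -1.79 ± 0.31 (SE; adjusted p = 0.0025). Col11a1 was at 191, 165, 206, 566 and 503 CPM in G1-S, with -1.49 ± 0.24 (SE; adjusted p = 0.00113). In both, G1-S lay above G1 in each WT-titled preparation and below it in 5 and 8. Col12a1 was at 90.9, 85.1, 93.5, 899 and 920 CPM in G1 and at 152, 125, 145, 614 and 511 CPM in G1-S, with the same turn and -1.34 ± 0.26 (SE; adjusted p = 0.00543). Col22a1 was the 1 member higher. It was at 36.2, 34.6, 37.1, 19.3 and 20.2 CPM in G1 and at 35.1, 27.4, 37.8, 54.3 and 107 CPM in G1-S, with 2.22 ± 0.32 (SE; adjusted p = 0.000615). Its highest value among all 25 libraries was that of G1-S in preparation 8.

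The other 9 were Col6a2, Col7a1, Col9a2, Col9a3, Col13a1, Col16a1, Col23a1, Col24a1 and Col25a1, with differences of -0.83 to -1.34. These calls rest on both E13.5 preparations: without preparation 5, 1 member was called, and without preparation 8 none of the 41 was (1 sample is then left at E13.5, and it is assumed to vary like the others). The signs of all 13 stayed the same in both. Without WT2 the number grew to 23, with 1 higher and 22 lower. Col26a1, Col6a3 and Col28a1 also passed when the preparation was a block, with -0.63 ± 0.19 (adjusted p = 0.0366), -0.67 ± 0.20 (adjusted p = 0.0325) and 1.998 ± 0.62 (adjusted p = 0.0463). The cartilage markers moved with them, with 5 of 10 lower and 0 higher in the same test, and their sum was 759, 786, 821, 5632 and 5172 CPM in G1 and 1037, 930, 1186, 2825 and 2614 CPM in G1-S. Of other lists, 6 of 7 hepatocyte, 8 of 10 neuronal, 3 of 8 macrophage, 2 of 8 neural progenitor and 2 of 11 epithelial markers were higher, and 2 of 8 mural, 2 of 6 osteoblast, 1 of 3 tendon and 1 of 10 mesenchyme markers were lower. The part of these cells was not tested.

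**Figure D4:**
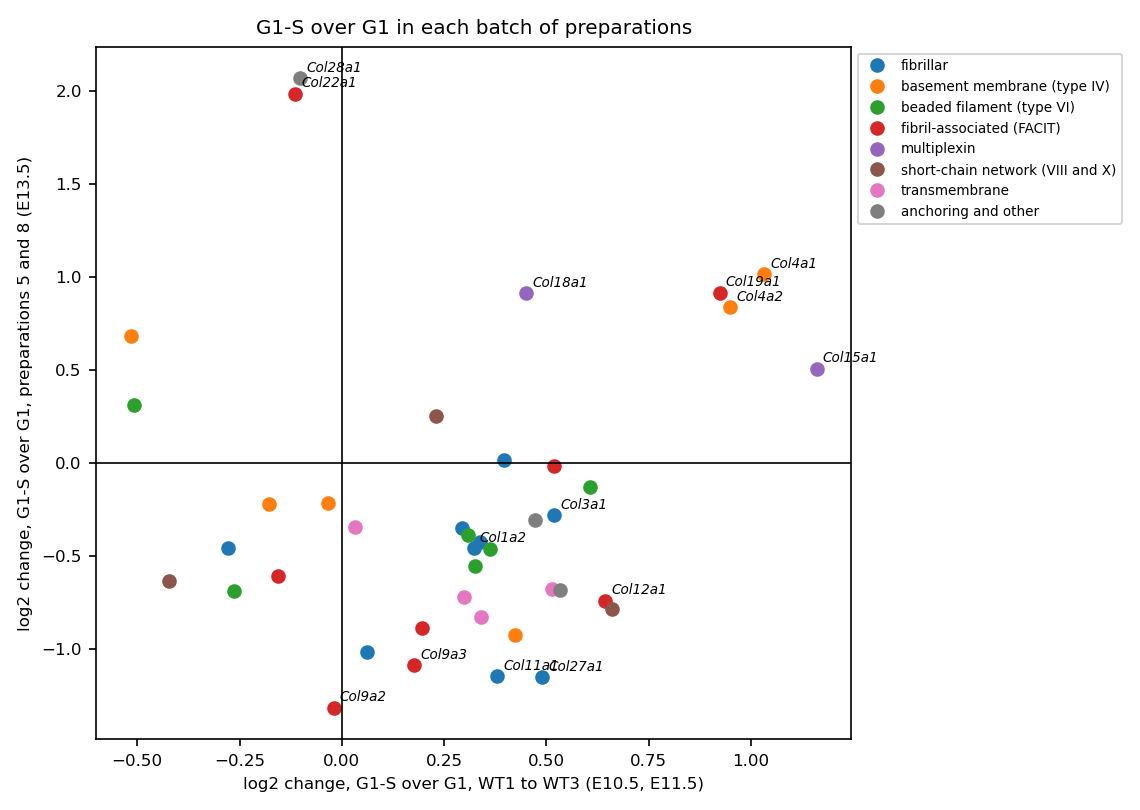
Log2 change of each collagen gene from G1 to G1-S in the WT-titled preparations (horizontal axis) and in preparations 5 and 8 (vertical axis), coloured by class. Col4a1, Col4a2, Col18a1, Col15a1 and Col19a1 lie to the upper right, and Col27a1, Col11a1 and Col12a1 to the lower right, above 0 on the horizontal axis and below 0 on the vertical.

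S-G2-M was then set against G1-S. Of the 41 members 0 were higher and 15 lower, against 7.28% and 10.1% of all genes. DESeq2 called 0 higher and 19 lower, and without the filter on low counts 1 was higher and 22 lower. The median log2 change was -0.58 for the members and 0.00 for all genes. Lower were 4 of 8 fibril-associated, 3 of 6 type VI, 3 of 9 fibrillar and 2 of 6 type IV genes, both multiplexins and Col8a2. Within the WT-titled preparations 0 were higher and 18 lower (4.02% and 6.96% of all genes). Within preparations 5 and 8, 7 were higher and 15 lower (9.68% and 13.8% of all genes).

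Col4a1 was at 524, 666, 676, 592 and 567 CPM in S-G2-M, below its G1-S level in every library, with a log2 change of -1.05 ± 0.24 (SE; adjusted p = 0.00364). Col4a2 was at 335, 421, 456, 368 and 377 CPM, with -1.03 ± 0.22 (SE; adjusted p = 0.00233). For both genes the S-G2-M level lay within the range of G0. Col18a1 was at 397, 462, 498, 216 and 233 CPM, with -0.78 ± 0.21 (SE; adjusted p = 0.0133), a call lost without WT3 (adjusted p = 0.0706). Within the WT-titled preparations Col4a1 had -1.11 ± 0.36 (adjusted p = 0.0612) and Col18a1 -0.85 ± 0.30 (adjusted p = 0.0885). Col4a5, Col4a6, Col4a3 and Col4a4 did not pass, with -0.34 ± 0.18, -0.25 ± 0.20, -1.25 ± 0.52 and -0.55 ± 0.30.

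The 3 largest falls were those of Col19a1, Col15a1 and Col22a1. Col19a1, known from muscle and synapses, was at 5.57, 4.81, 2.59, 13.5 and 14.6 CPM in G1-S and at 1.37, 1.06, 0.783, 6.1 and 5.72 CPM in S-G2-M, with -1.62 ± 0.38 (SE; adjusted p = 0.00506). Col15a1 was at 33.1, 85.6, 59, 101 and 72.8 CPM in G1-S and at 7.97, 18, 13.6, 69.5 and 64.5 CPM in S-G2-M, with -1.41 ± 0.43 (SE; adjusted p = 0.0258). Both were lower in S-G2-M in every preparation. For Col15a1 the log2 change was -2.16 ± 0.56 (adjusted p = 0.0236) in the WT-titled preparations and -0.37 ± 0.14 (adjusted p = 0.0706) in 5 and 8, and the call was lost without WT3 (adjusted p = 0.132). Col22a1 was at 23.2, 23.4, 26, 19.6 and 20.8 CPM in S-G2-M, with -1.32 ± 0.35 (SE; adjusted p = 0.0127), and lost the call without 5 or 8 (adjusted p = 0.0553 and 0.0807). Its log2 change was -0.46 ± 0.13 (adjusted p = 0.0398) in the WT-titled preparations and -1.995 ± 0.30 (adjusted p = 0.00278) in 5 and 8.

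The remaining 9 were Col1a1, Col5a2, Col5a3, Col6a1, Col6a2, Col6a3, Col8a2, Col16a1 and Col20a1, with log2 changes of -0.58 to -1.20. Col6a1 and Col6a2, with -1.01 ± 0.22 and -0.86 ± 0.18, had -0.35 ± 0.09 (adjusted p = 0.0115) and -0.23 ± 0.09 (adjusted p = 0.0771) in preparations 5 and 8. Col1a1 lost its call without WT3 (adjusted p = 0.0683), Col8a2 without WT2 or WT3 (0.0711 and 0.112), Col20a1 without WT2 (0.0808), Col5a2 without WT2, WT3 or 8 (0.0541, 0.161 and 0.0605), and Col16a1 without WT1, WT2, WT3 or 8 (0.097, 0.178, 0.199 and 0.0619). Within preparations 5 and 8 Col8a2, Col20a1 and Col5a2 did not pass, with -0.29 ± 0.10 (adjusted p = 0.0553), -0.33 ± 0.15 (adjusted p = 0.126) and -0.25 ± 0.09 (adjusted p = 0.0651). Col16a1 fell by 0.63 ± 0.21 over all libraries and had a log2 change of 0.01 within preparations 5 and 8.

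Markers of several cell types fell in the same step. Of the endothelial markers 11 of 12 were lower in S-G2-M and 0 higher, and their sum was 76.5, 216, 190, 263 and 209 CPM, below the G1-S sum in every preparation. All 7 cardiac, 7 hepatocyte and 8 macrophage markers, 6 of 8 mural and 5 of 8 skeletal muscle markers were lower. Also lower were 7 of 9 erythroid, 4 of 11 epithelial and 4 of 10 neuronal markers. Neural progenitor markers went the other way, with 4 of 8 higher and 0 lower, and of the cartilage markers 1 of 10 was higher and 0 lower. The mesenchyme markers had 0 of 10 called. Of the basement membrane partners 9 of 16 were lower, among them Lama4 with -1.33 ± 0.24 (SE; adjusted p = 0.00066) and Hspg2, the perlecan core protein, with -0.97 ± 0.22 (SE; adjusted p = 0.00347). Of the modification list 1 of 20, Creb3l1, was lower, with -1.29 ± 0.28 (SE; adjusted p = 0.00246). The part of these cells was not tested.

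The difference of this step between days was higher at E13.5 for 6 members and lower for 2, against 0.353% and 0.664% of all genes. Without the filter on low counts 15 were higher and 3 lower. Col6a4 was at 0.681, 0.535, 0.301, 2.05 and 2.81 CPM in G1-S and at 0.171, 0.375, 0.0728, 12.4 and 15.3 CPM in S-G2-M, with 3.57 ± 0.52 (SE; adjusted p = 0.00164). Without WT2 the Col6a4 value was 4.47. Col7a1, the anchoring fibril collagen of skin, was at 19.8, 19.8, 16.8, 24.1 and 31.9 CPM in G1-S and at 8.57, 6.77, 8.89, 36.5 and 43.5 CPM in S-G2-M, with 1.88 ± 0.31 (SE; adjusted p = 0.00459). In both genes S-G2-M lay above G1-S in 5 and 8 and below it in each WT-titled preparation. Col17a1, of epidermal hemidesmosomes, was at 8.42, 6.77, 4.4, 19.6 and 17.9 CPM in G1-S and at 3.65, 3.35, 2.84, 24.1 and 28.3 CPM in S-G2-M, with 1.59 ± 0.24 (SE; adjusted p = 0.00197).

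Col6a2, Col9a2 and Col9a3 were the other 3, with 0.98 ± 0.21, 1.22 ± 0.23 and 1.33 ± 0.26. Col28a1, known from peripheral nerve, was at 0.434, 0.327, 0.181, 11.9 and 17.5 CPM in G1-S and at 0.627, 0.309, 0.546, 1.55 and 1.52 CPM in S-G2-M, with -3.57 ± 0.62 (SE; adjusted p = 0.00667). Its 2 highest libraries of all 25 were the G1-S libraries of E13.5. The difference of Col22a1 was -1.58 ± 0.32 (SE; adjusted p = 0.0219), a call lost also without WT1 or WT2 (adjusted p = 0.0904 and 0.203). Without preparation 5 or without preparation 8, none of the 41 was called in this test, and without WT1 or WT2 the number was 17 or 18. With the preparation as a block, Col20a1, Col14a1 and Col15a1 passed as well, with 1.24 ± 0.31 (adjusted p = 0.0318), -0.82 ± 0.19 (adjusted p = 0.0211) and 1.80 ± 0.24 (adjusted p = 0.000304). Of the epithelial markers, from the tissue known for Col7a1 and Col17a1, 0 of 11 were called in this test. Their sum was 215, 240, 295, 315 and 286 CPM in G1-S and 88.7, 144, 109, 234 and 237 CPM in S-G2-M. In the same test 5 of 7 hepatocyte and 1 of 8 macrophage markers were lower, 3 of 8 skeletal muscle, 2 of 8 mural and 2 of 10 cartilage markers were higher, and of the neuronal markers 3 of 10 were higher and 1 was lower. The part of these cells was not tested.

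The day difference of the G1 step was called for 6 members, 5 higher at E13.5 and 1 lower, against 1.04% and 2.47% of all genes. Without the filter on low counts 7 were higher and 5 lower, and Col17a1 was not called (adjusted p = 0.0552). Col6a4 was at 3.06, 2.48, 2.64, 2.27 and 2.34 CPM in G0 and at 0.551, 0.363, 0.845, 4.35 and 3.27 CPM in G1, with 3.35 ± 0.47 (SE; adjusted p = 0.000631). Col9a3 was at 14, 17.4, 14.2, 109 and 109 CPM in G0 and at 12.3, 10.3, 9.98, 389 and 385 CPM in G1, with 2.31 ± 0.26 (SE; adjusted p = 9.32e-05). For both, G1 lay below G0 in each WT-titled preparation and above it in 5 and 8. Col9a2 was at 14.8, 16.3, 15.9, 101 and 107 CPM in G0 and at 21.1, 20.6, 18.4, 314 and 302 CPM in G1, with 1.15 ± 0.23 (SE; adjusted p = 0.0075). Col11a1 and Col17a1 had 0.93 ± 0.24 and 1.05 ± 0.24. Col26a1 was the 1 lower, with -1.18 ± 0.21 (SE; adjusted p = 0.00371), and its G0 level was higher at E13.5.

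With the preparation as a block, Col7a1, Col14a1 and Col3a1 passed as well, with 1.17 ± 0.29 (adjusted p = 0.0189), -0.70 ± 0.20 (adjusted p = 0.0358) and -1.27 ± 0.35 (adjusted p = 0.0457). Without preparation 5 or without preparation 8, none of the 41 was called, and without WT1 or WT2 the number was 14 or 21. Cartilage markers had 4 of 10 higher and 0 lower in the same test. Their sum was 265, 436, 435, 1286 and 1207 CPM in G0, against the G1 sums above. Acan, the cartilage proteoglycan, was at 2.1, 4.36, 4.11, 71.3 and 51.4 CPM in G0 and at 1.1, 1.71, 1.49, 367 and 303 CPM in G1. In the mesenchyme markers 0 were higher and 5 of 10 lower. Their part was not tested.

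The last comparison of gates set S-G2-M against G0. Of the 41 members 7 were higher and 5 lower, against 27.5% and 26.6% of all genes. Without the filter on low counts 16 were higher and 11 lower. Within the WT-titled preparations 11 were higher and 9 lower (24.5% and 23.3% of all genes), and within 5 and 8, 13 were higher and 12 lower (26.6% and 29.3%). The 3 largest rises were those of Col26a1, Col27a1 and Col11a1. In S-G2-M, Col26a1 was at 221, 244, 223, 188 and 202 CPM, with 1.33 ± 0.23 (SE; adjusted p = 4.09e-05). Its log2 change was 2.10 ± 0.15 (adjusted p = 6.42e-08) in the WT-titled preparations and 0.37 ± 0.08 (adjusted p = 0.00123) in 5 and 8. Col27a1 was at 33.7, 30.2, 30.5, 177 and 207 CPM, with 1.11 ± 0.26 (SE; adjusted p = 0.000786), and Col11a1 at 145, 140, 151, 684 and 630 CPM, with 0.997 ± 0.19 (SE; adjusted p = 8.23e-05). All 3 were higher than in G0 in every preparation. Cell type markers moved in the same comparison, with 10 of 10 neuronal, 4 of 8 skeletal muscle and 4 of 7 cardiac markers lower. Of the mesenchyme markers 7 of 10 and of the neural progenitor markers 7 of 8 were higher, and of the cartilage markers 5 of 10 were higher and 1 was lower. Their part was not tested.

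Col13a1, Col14a1, Col23a1 and Col25a1 were also higher, with 0.63 ± 0.23, 0.92 ± 0.23, 0.73 ± 0.18 and 0.68 ± 0.21. None of these 4 passed within preparations 5 and 8, where their log2 changes were 0.00, -0.19, 0.04 and -0.02. Leaving out WT1, WT2 or WT3 ended the call of Col13a1 (adjusted p = 0.0835, 0.107 and 0.114), and leaving out WT1 or WT2 that of Col25a1 (0.0622 and 0.0626). Within the WT-titled preparations Col14a1 had 1.70 ± 0.19 (adjusted p = 3.7e-06). With the preparation as a block, Col4a1, Col4a5 and Col4a6 were higher too, with 0.39 ± 0.16 (adjusted p = 0.0463), 0.44 ± 0.17 (adjusted p = 0.0374) and 0.43 ± 0.17 (adjusted p = 0.0343).

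Of the falls with a mean of at least 1 CPM, Col19a1 was at 2.04, 9.54, 5.18, 5.67 and 5.5 CPM in G0, against the S-G2-M values above, with -1.47 ± 0.39 (SE; adjusted p = 0.00254). Its log2 change was -2.39 ± 0.47 (adjusted p = 0.000679) in the WT-titled preparations and 0.03 ± 0.19 (adjusted p = 0.906) in 5 and 8, and the call was lost without WT2 (adjusted p = 0.0598). Col5a3 was at 3.4, 10.2, 5.98, 1.97 and 2.18 CPM in G0 and at 2.99, 3.26, 2.8, 1.18 and 1.88 CPM in S-G2-M, with -0.89 ± 0.26 (SE; adjusted p = 0.00483), lost without WT2 (adjusted p = 0.0511). Col20a1 was at 8.86, 5.92, 4.87, 12.8 and 14.7 CPM in G0 and at 3.27, 3.17, 3.51, 12.4 and 14.3 CPM in S-G2-M, with -0.57 ± 0.22 (SE; adjusted p = 0.0325). WT1 was the library with the widest gap for Col20a1, and the call was lost without WT1, WT2 or WT3 (adjusted p = 0.195, 0.0871 and 0.054). Below 1 CPM on average, Col4a3 and Col6a5 were lower, with -2.18 ± 0.49 (SE; adjusted p = 0.000605) and -1.17 ± 0.41 (SE; adjusted p = 0.0176). Col6a5 lost the call without WT2, 5 or 8 (0.0625, 0.0552 and 0.0704). Col4a3 was at 0.577, 1.18, 0.804, 0.444 and 1.04 CPM in G0 and at 0.114, 0.264, 0.146, 0.16 and 0.145 CPM in S-G2-M, where the 2 E13.5 libraries had 3 and 2 counts. Within preparations 5 and 8 Col5a3 and Col20a1 did not pass, with -0.52 ± 0.30 (adjusted p = 0.159) and -0.11 ± 0.15 (adjusted p = 0.579), and within the WT-titled ones Col6a5 did not, with -1.34 ± 0.74 (adjusted p = 0.155).

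Collagen genes could be compared within each library as a ratio of CPM per kb, and most pairs were chains of the same trimer. Col3a1 over Col1a1, Col4a1 over Col1a1 and Col4a1 over Col4a5 set chains of different collagens or networks against each other. Col4a1 over Col4a2 was 1.32 to 1.71 in all 25 libraries, with a median of 1.47, although the level of Col4a1 ranged from 217 to 1558 CPM. Col4a5 over Col4a6 was 2.29 to 3.56, and Col6a1 over Col6a2 was 0.761 to 1.52. Type I collagen is built from 2 Col1a1 chains and 1 Col1a2 chain, and here Col1a1 over Col1a2 was 0.216 to 0.93, with medians of 0.381 in the 15 WT-titled libraries and 0.716 in the 10 E13.5 libraries. The lengths set these values: with the length of all annotated exons (an added alternative, picked once the data had been seen) the median over 25 libraries was 1.2 in place of 0.571. That of Col6a1 over Col6a2 was 1.72 in place of 1.03. Of the 11 ratios compared, 5 moved by their SD over the 25 libraries or more. Differences between libraries do not depend on the length.

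Col1a1 over Col1a2 was 0.505, 0.78, 0.571, 0.775 and 0.93 in G0 and 0.216, 0.251, 0.272, 0.623 and 0.739 in S-G2-M. It was lower in S-G2-M in 5 of 5 preparations, with a mean log2 difference of -0.92 ± 0.58 (SD, n = 5). An exact sign-flip permutation test gave p = 0.0625, two-sided, the smallest that 5 pairs can give, and 0.172 after adjustment over the 11 ratios compared. Col3a1 over Col1a1 was higher in S-G2-M in 5 of 5 preparations, with 1.09 ± 0.70 (SD, n = 5) and the same exact p. So were Col4a1 over Col1a1 and Col6a3 over Col6a1, at 0.76 ± 0.18 and 0.37 ± 0.17 (SD, n = 5), with that p. The other ratios compared did not keep 1 direction in all 5 preparations. Ratios that hold Col1a1 share its values, so they are not separate results. Col5a1 over Col5a2 was 0.413 to 0.617 in the WT-titled libraries and 0.774 to 1.14 at E13.5, without overlap. Col8a1 over Col8a2 was 0.0452 to 0.188 and 0.292 to 0.404, and Col4a1 over Col1a1 was 1.29 to 4.3 and 0.269 to 0.784, each without overlap between the batches. Col9a3 over Col9a2 was 0.424 to 1.02 in the WT-titled libraries and 0.976 to 1.48 at E13.5.

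**Figure D5:**
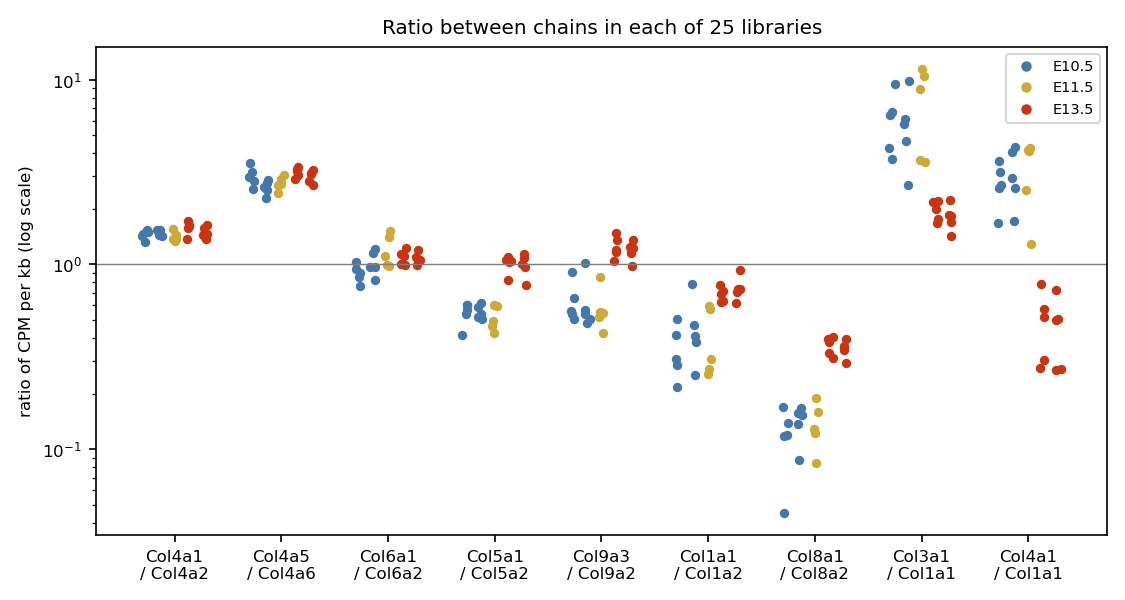
Ratio of CPM per kb between 9 pairs of collagen genes in each of 25 libraries (points, coloured by day, 1 column of points per preparation; log axis; the grey line is a ratio of 1). Col4a1 over Col4a2 stays between 1.32 and 1.71, while Col3a1 over Col1a1 and Col4a1 over Col1a1 are lower at E13.5 than in any WT-titled library.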

How the data were processed

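RNA of 25 libraries (5 preparations in 4 sorted gates and unsorted) was sequenced after depletion of ribosomal RNA. The authors deposited raw read counts per gene and lane, made with STAR 2.5.3 and HTSeq 0.8.0 on mm10 per the submitters' processing notes. Neither the annotation nor the use of strand in counting is given in the sources used here. Lanes were summed per library. Their spread between lanes was 1.09 to 1.23 times that of random sampling, so lanes were not used as replicates.

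Genes passing edgeR's filterByExpr (minimum count 10, minimum total 15) were tested with edgeR 4.0.16 in R 4.3.3 (TMM scaling, robust quasi-likelihood test, Benjamini-Hochberg adjusted p under 0.05 over all genes tested). Gate comparisons used all 25 libraries with gate and day as terms. The day comparison used the 5 unsorted libraries with E11.5 as a group of its own, and day differences of gate steps came from a model with a mean for each gate and day. The 5 libraries of a preparation carry its name in the labels and deviated together: between 2 preparations of a day, the differences in any 2 gates correlated at 0.125 to 0.699 (WT1 and WT2) and 0.276 to 0.611 (5 and 8) over 10994 genes with a mean of at least 10 CPM. The block by preparation was an alternative, as were RLE factors, DESeq2 1.42.0, no filter, each preparation left out, each batch alone, and Gm26917 and Gm42418, the annotated genes with very abundant RNA, left out. CPM per kb used the longest coding transcript in GENCODE M21, to which all 41 genes matched. Described in full were the type IV genes, the 2 genes of each class with the highest mean, and the 3 largest called rises and falls with a mean of at least 1 CPM. The members and the gene lists were chosen with earlier results of these data known.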

Additional observations from a re-analysis of the deposited data

Results flagged for a closer look

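Among 205 groups of 5 libraries (41 genes in 5 gates), 2 held a library that lay apart from the other 4 by the size of its gap to the nearest of them over the whole range (Dixon's 95% critical value), and chance gives about 1 in 20. Col4a2 in the unsorted WT1 library was at 243 CPM, below the other 4. Col13a1 in the G0 library of WT1 was at 4.21 CPM, again the lowest.

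The difference of a gate step between E13.5 and E10.5 was tested as an interaction and passed 27 times, in 17 genes. All values are log2 differences, E13.5 minus E10.5. For the step from G0 to G1 they were 3.35 for Col6a4, 2.31 for Col9a3, 1.15 for Col9a2, 1.05 for Col17a1, 0.93 for Col11a1 and -1.18 for Col26a1. For the step from G1 to G1-S they were -1.79 for Col27a1, -1.49 for Col11a1, -1.34 for Col7a1, -1.34 for Col12a1, -1.34 for Col24a1, -1.25 for Col13a1, -1.25 for Col25a1, -1.18 for Col9a3, -1.17 for Col16a1, -1.16 for Col9a2, -1.03 for Col23a1, -0.83 for Col6a2 and 2.22 for Col22a1. For the step from G1-S to S-G2-M they were 3.57 for Col6a4, 1.88 for Col7a1, 1.59 for Col17a1, 1.33 for Col9a3, 1.22 for Col9a2, 0.98 for Col6a2, -1.58 for Col22a1 and -3.57 for Col28a1. E13.5 is represented by preparations 5 and 8 alone, so that day and batch cannot be told apart.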

How the results depend on the processing

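Among the 107 results for single genes, all kept direction and call under DESeq2, and likewise when Gm26917 and Gm42418 were dropped, 106 with RLE factors (Col18a1 was lost) and 106 without the filter on low counts (Col17a1 was lost), and none was reversed when 1 preparation was left out. Without the filter the number of collagen genes called grew to 12 for G1-S against G1, 23 for S-G2-M against G1-S and 27 for S-G2-M against G0, and to 12, 20 and 18 for the day differences of the steps to G1, G1-S and S-G2-M. The cause was not tested. DESeq2 called 5 for G1-S against G1. For that comparison 32 were called within preparations 5 and 8 and 1 within the WT-titled ones, and for S-G2-M against G0 the numbers were 25 and 20. Within preparations 5 and 8 the sign turned for Col14a1 (-0.185), Col19a1 (0.031) and Col25a1 (-0.023) in S-G2-M against G0, and for Col16a1 (0.013) in S-G2-M against G1-S. With 1 preparation left out, the number called was 25 to 37 for the day, 18 to 22 for G1 against G0, 2 to 4 for G1-S against G1, 10 to 17 for S-G2-M against G1-S and 11 to 14 for S-G2-M against G0. For the day differences of the steps to G1, G1-S and S-G2-M it was 0 to 21, 0 to 23 and 0 to 18, with an arm of 1 sample when preparation 5 or 8 was left out. With the preparation as a replicate block, 22 genes were higher and 1 lower in G1 against G0, 78 of 78 called gate results were kept, and the block changed no call other than the added ones whose values stand beside the results above. Counts limit Col6a5, Col4a3, Col28a1 and Col10a1, which had 3 counts or fewer in at least 1 library. Col6a4 had no such library but was low in S-G2-M, at 0.171, 0.375 and 0.0728 CPM in WT1, WT2 and WT3. In those libraries 3 counts make 0.0854, 0.0661 and 0.0546 CPM.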
